A study of Mus musculus with 74 samples.

Results

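Foxf1, Foxf2, Tbx2, Tbx3, Tbx4, Tbx5, Tcf21 and Gata6 are transcription factors of lung mesenchyme, and their levels were compared between primary mammary tumors (PT) and lung metastases (Lung met) of mice. These 8 genes, of 22079 named genes in the tables, were picked by name and chosen by their measured ratio of Lung met over PT, so that ratio describes them and is not a test of them. Of the 8 genes, 6 had a row in at least 1 table and 3 had a row in every table used here.

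Bulk RNA-seq was performed on 74 samples, each a PT or a Lung met of a female F1 mouse. The driver models were FVB Her2 (6 PTs and 6 Lung mets, the neu oncogene under the MMTV promoter), FVB C3Tag (7 and 7, the SV40 T antigen under the C3(1) promoter) and FVB Myc (6 and 6, Myc under the MMTV promoter). The BALB, SEAGN and AKR PyMT-F1 groups (6 PTs and 6 Lung mets each) came from FVB males carrying MMTV-PyMT, crossed to wild-type females of BALB/cJ, SEA/GnJ and AKR/J. The MMTV promoter drives its transgene in mammary epithelium, and no label names an engineered change in the genes described here. Every mouse with PyMT gave its tissue at endpoint, whereas Her2, C3Tag and Myc mice with a single tumor had it removed by surgery and their Lung mets collected later. PTs of a mouse were combined, and whole lung nodules were taken. Ages of single mice were not used here. For the PyMT-F1 samples the strain in the sample titles was followed, since the genotype label of some samples names another strain.

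The values are the authors' normalized group mean of each gene in PT and in Lung met, 1 pair for each model. No value of a single sample was used, so the spread between mice, the depth of each sample and the error of each mean are unknown, and no test was made of any difference below. Her2, C3Tag, BALB and SEAGN tables were used, together with the table deposited under AKR ("AKR-named" below). The strain of that last table is in doubt, because the study's own gene lists hold its ratios under another PyMT-F1 cross, and medians are therefore given with and without it. For C3Tag, the study counts more PTs than the sample labels do, so the number behind that PT mean is uncertain. The Myc comparison was not analysed here, since its table held no group means. Each table was normalized separately, so a level was compared between PT and Lung met only within a table.

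By way of background, lung mesenchyme gives rise to the fibroblasts, smooth muscle and pericytes of the airways and alveoli. Foxf1 and Foxf2 are forkhead factors that lie downstream of hedgehog signals from the lung epithelium, and Foxf1 is needed for the capillary endothelium of the lung as well. Tbx2, Tbx3, Tbx4 and Tbx5 are T-box factors of lung mesenchyme, of which Tbx2 and Tbx3 are mostly repressors and Tbx4 and Tbx5 are activators upstream of Fgf10, a ligand that drives airway branching. Tcf21 is a basic helix-loop-helix factor of lipofibroblasts and other mesenchyme of visceral organs, and Gata6 is a zinc finger factor of lung epithelium, smooth muscle, endothelium and heart. Fibroblasts keep such factors in adult life as a mark of the organ they come from. In a bulk sample, fewer cells of a type and less RNA per cell cannot be told apart.

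Several of these genes belong to the same family and have alike stretches of coding sequence, which bears on how well short reads can separate them. In the coding sequences of the GENCODE M21 annotation (GRCm38), the most alike 60 bases of Foxf1 and Foxf2 were identical at 59 bases. They lay in exon 1 of each gene, on the plus strand, at chr8:121084657-121084716 in Foxf1 and at chr13:31626494-31626553 in Foxf2. The sequences are shown because Foxf1 and Foxf2 had very unequal ratios in the only table that held both, with capitals at the base that differs:
Foxf1: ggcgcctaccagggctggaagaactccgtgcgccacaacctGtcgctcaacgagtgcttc
Foxf2: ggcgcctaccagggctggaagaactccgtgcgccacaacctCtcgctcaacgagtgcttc
The longest identical run in these coding sequences was 41 bases, and the transcripts of both genes shared 0 stretches of 50 bases, of 2366 in Foxf1 and 2314 in Foxf2.

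The T-box genes were less alike. For Tbx2 and Tbx3, the pair with rows in all 5 tables, the most alike 60 coding bases differed at 7 bases, again within exon 1 on the plus strand, at chr11:85833430-85833489 in Tbx2 and chr5:119672333-119672392 in Tbx3, with the differing bases in capitals:
Tbx2: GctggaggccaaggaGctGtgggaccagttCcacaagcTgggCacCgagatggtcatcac
Tbx3: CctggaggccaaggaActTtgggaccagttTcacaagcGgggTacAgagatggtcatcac
The longest identical run was 14 bases for Tbx2 and Tbx3, 15 for Tbx3 and Tbx5, 20 for Tbx2 and Tbx5, and 23 for Tbx4 and Tbx5. None of these pairs shared a stretch of 50 bases. Read length and the treatment of reads with several matches were not given for these tables in the sources used here, so how the authors' counting treated a shorter fragment in a shared run is unknown.

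Of the 8 genes, 4 lie in linked pairs. On GRCm38, Tbx2 (chr11:85832551-85841948) and Tbx4 (chr11:85886422-85916097) were 44.5 kb apart, and Tbx3 (chr5:119670669-119684724) and Tbx5 (chr5:119832668-119885219) were 148 kb apart. Foxf1 spans chr8:121084386-121088144, Foxf2 spans chr13:31625816-31631403 and Tcf21 spans chr10:22817281-22820174 on the minus strand. All of them are protein-coding genes. The antisense transcript Tbx3os1 overlaps the start of Tbx3, and no table had a row for it. The kit kept the strand, but whether the counting used it is not stated in the sources used here, so a share of the Tbx3 value could come from that transcript. The annotation also has a protein-coding model, Gm20388, that spans Foxf1 on the same strand, and a transcript, 1010001N08Rik, over the start of Gata6 on the other strand. Neither had a row in any table, and how reads in these overlaps were assigned is unknown.

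Foxf1 had the highest ratio of any of these genes in each of the 4 tables that held it. Its group mean was 4.26 in PT and 79.8 in Lung met of Her2, 19.5 and 302 in C3Tag, 3.67 and 58.1 in BALB, and 9.72 and 254 in the AKR-named table. The Lung met mean was thus 18.7, 15.5, 15.8 and 26.1 times the PT mean, or 4.23, 3.95, 3.99 and 4.71 as a log2 ratio. The 4 ratios lay within 0.76 of each other on the log2 scale, although the models differ in oncogene and in strain, and their median was 4.11 with the AKR-named table and 3.99 without it. SEAGN had no row for Foxf1, either under its symbol or under the identifier it has in BALB.

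Foxf2, the closest relative of Foxf1, had a row in the C3Tag table alone. Its mean was 155 in PT and 209 in Lung met, a log2 ratio of 0.43. In the same table Foxf1 exceeded Foxf2 by 3.52 in log2 ratio, so that its ratio was 11.5 times that of Foxf2. In C3Tag PT, Foxf2 had the higher level of the pair per kilobase of exon (65.4 against 8.07 for Foxf1), and in C3Tag Lung met the order was the opposite (88.3 against 125).

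Tbx2 was higher in Lung met in all 5 tables. Its mean was 42.6 in PT and 114 in Lung met of Her2, 68.1 and 506 in C3Tag, 23.9 and 106 in BALB, 30.6 and 124 in SEAGN, and 28.5 and 263 in the AKR-named table. The corresponding ratios of 2.68, 7.43, 4.43, 4.04 and 9.21 spread more widely than those of Foxf1, with the lowest in Her2 and the highest in the AKR-named table. The median log2 ratio of Tbx2 was 2.15, and 2.08 without the AKR-named table.

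Tbx3 had the smallest ratios among the genes with rows in several tables, and its means were higher in Lung met in all 5. They were 15.8 in PT and 35.5 in Lung met of Her2, 379.6 and 526 in C3Tag, 28.6 and 113 in BALB, 45.5 and 89.8 in SEAGN, and 42.7 and 144 in the AKR-named table. Tbx3 is expressed in mammary epithelium too, where it takes part in the development of the gland. The ratios were 2.24, 1.39, 3.94, 1.97 and 3.37, so Tbx3 did not reach 2-fold in C3Tag and SEAGN. Its median log2 ratio was 1.17, and 1.07 without the AKR-named table.

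Tbx5, the activator next to Tbx3 on the chromosome, had a row in SEAGN alone, with a mean of 1.85 in PT and 33.6 in Lung met. The ratio of 18.2, a log2 ratio of 4.18, was of the size seen for Foxf1 in the other tables, and it rested on the lowest PT mean of any of these genes. With 1 added to both means the log2 ratio was 3.60. Tbx5 is also a heart factor. Of 8 cardiac muscle markers, Myh6, Myl7, Nkx2-5, Sln, Nppa and Actc1 had no row in any table. Tnnt2 had a log2 ratio of -1.52 in SEAGN, with -0.59 to 0.75 in the other tables. Myl4 had -0.18 in SEAGN and from -0.36 in Her2 to 1.05 in the AKR-named table, with a higher-tissue mean as low as 8.66. A part of heart tissue in the Tbx5 ratio was not tested. Tbx4 had no row under its symbol in any table, so the Tbx4 and Tbx5 pair could not be compared.

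**Figure D1:**
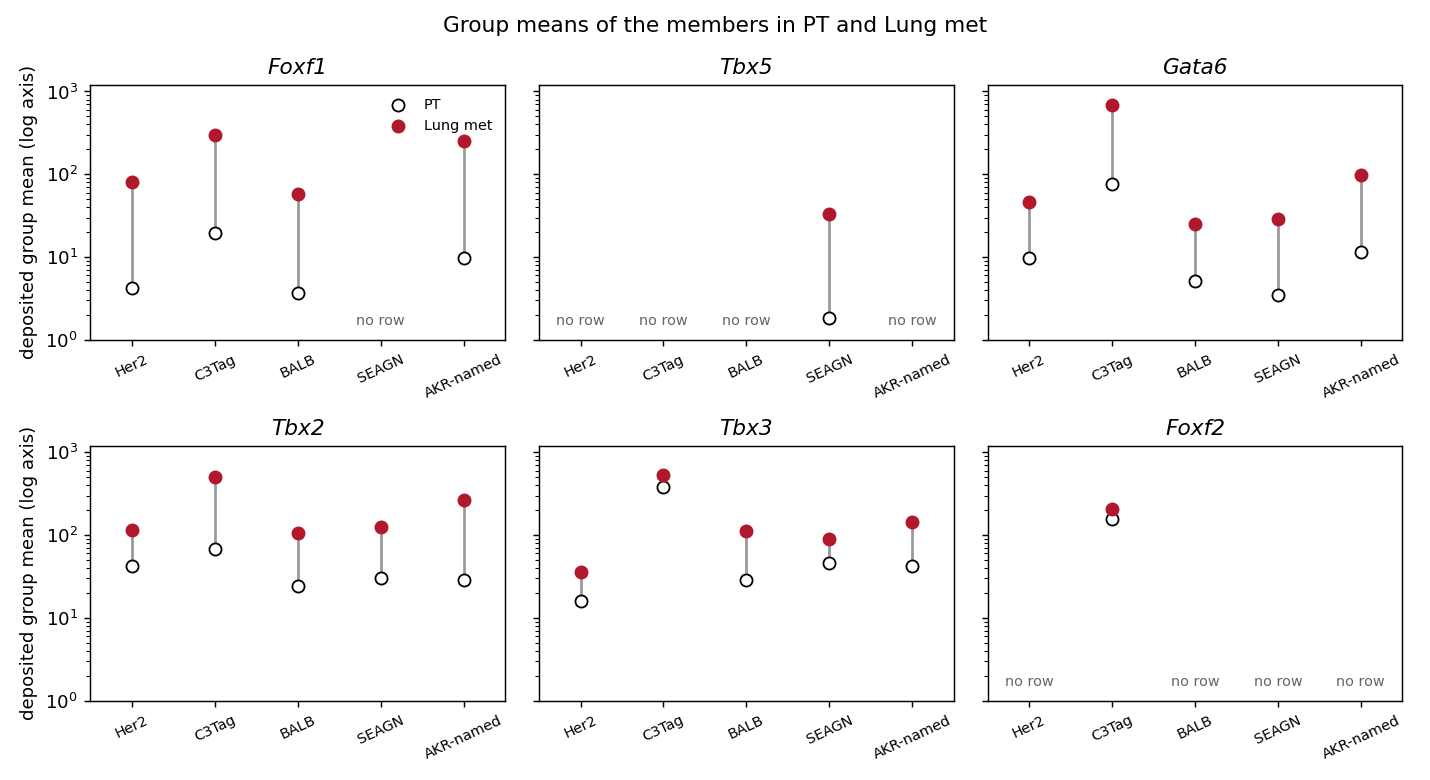
Authors' group means of 6 genes in PT (open circles) and Lung met (filled circles) of each table, on a logarithmic axis in normalized units set separately in each table. Each line joins the 2 means of 1 table. Every filled circle lies above its open circle, by the widest margin for Foxf1 (15.5 to 26.1 times) and Tbx5 (18.2 times) and the narrowest for Foxf2 (1.35 times).

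Gata6 was higher in Lung met in all 5 tables, with ratios between those of Foxf1 and Tbx3. Its mean was 9.87 in PT and 46.1 in Lung met of Her2, 76.7 and 678 in C3Tag, 5.14 and 25.4 in BALB, 3.50 and 28.8 in SEAGN, and 11.4 and 97.6 in the AKR-named table. The ratios were 4.67, 8.84, 4.94, 8.21 and 8.59, lowest in Her2 and BALB. With 1 added to both means the log2 ratios were 2.12, 3.13, 2.10, 2.72 and 3.00 in the same order. SEAGN, with a PT mean of 3.50, then lay between the lower and the higher values. The median log2 ratio was 3.04, and 2.67 without the AKR-named table. Tcf21 had no row under its symbol in any table, so neither its level nor its difference from Gata6 was analysed here.

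Set against all genes of each table, most of these ratios were far from the middle of the distribution, as the choice of the genes by this same contrast would make them. In Her2, 4 of 4 genes with a row were at least 2-fold higher in Lung met, against 2.38% of all genes. It was 3 of 5 in C3Tag (7.42% of all genes), 4 of 4 in BALB (2.26%), 3 of 4 in SEAGN (2.86%) and 4 of 4 in the AKR-named table (7.31%). At least 2-fold lower were 0 of them in every table, where 1.43% of all genes were in Her2, 1.7% in C3Tag, 2.4% in BALB, 3.22% in SEAGN and 1.73% in the AKR-named table. The median log2 ratio over these genes was 1.82 in Her2, 2.89 in C3Tag, 2.23 in BALB, 2.53 in SEAGN and 3.15 in the AKR-named table, while that over all genes lay between -0.0013 and 0.030.

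In rank, 23 of 18208 genes had a higher ratio than Foxf1 in Her2, 53 of 19320 in C3Tag, 10 of 17270 in BALB and 18 of 17829 in the AKR-named table. For Tbx5 in SEAGN it was 10 of 17351 genes. Gata6 was exceeded by 42 to 122 genes and Tbx2 by 65 to 239. Tbx3 ranged most widely, from 74 genes above it in BALB to 3302 in C3Tag, and Foxf2 in C3Tag had 3537 above it.

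**Figure D2:**
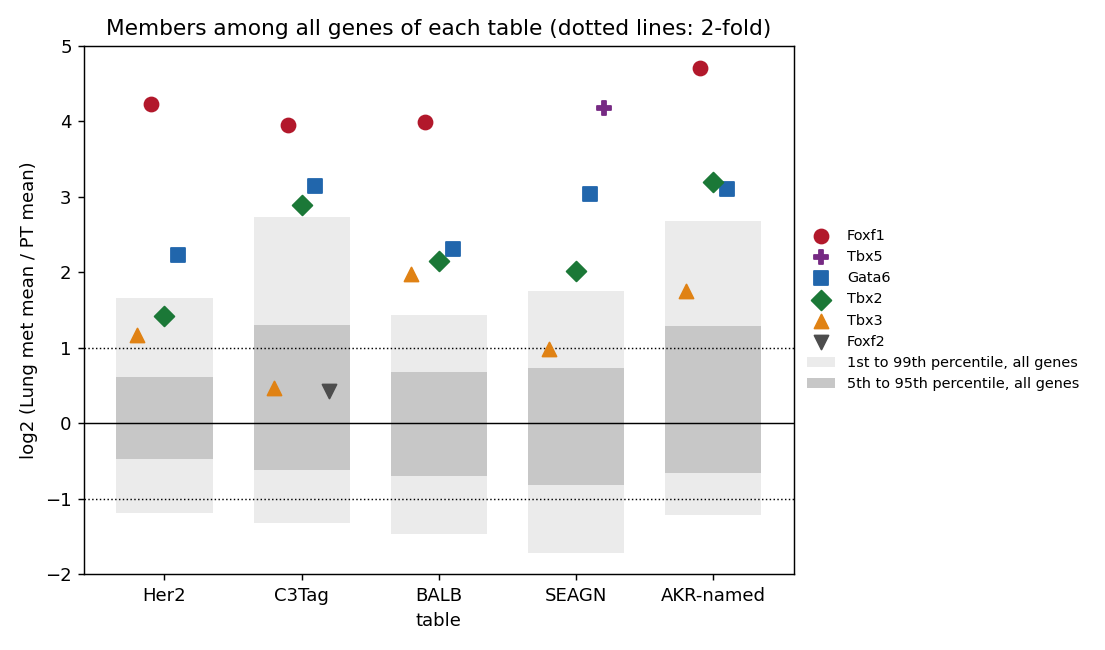
Log2 ratio of the Lung met mean over the PT mean for each gene (symbols) in each table, over bars that span the 5th to 95th (dark) and 1st to 99th (light) percentile of all genes in that table; dotted lines mark 2-fold. Foxf1 lies between 3.95 and 4.71, while Tbx3 and Foxf2 in C3Tag (0.47 and 0.43) fall inside the dark bar.

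The related pairs differed in how equal their ratios were. The log2 ratio of Tbx2 exceeded that of Tbx3 by 0.25 in Her2, 2.42 in C3Tag, 0.17 in BALB, 1.03 in SEAGN and 1.45 in the AKR-named table. The direction was thus the same in 5 tables, and the difference was close to 0 in Her2 and BALB. Tbx5 exceeded Tbx3 by 3.20 in SEAGN. Among pairs set side by side after their values were seen, Foxf1 exceeded Gata6 by 0.81 to 2.00 over 4 tables, and Gata6 and Tbx2 changed order, from 1.02 in favor of Gata6 in SEAGN to -0.10 in the AKR-named table. Without sample values it is unknown which of these differences exceed the spread between mice.

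Levels of different genes were compared within a tissue of a table as the group mean per kilobase of merged exons. In PT, Tbx2 had the highest level of these genes in Her2, BALB, SEAGN and the AKR-named table (11.8, 6.59, 8.45 and 7.86 per kb), followed each time by Tbx3 (2.39, 4.31, 6.87 and 6.44 per kb). In C3Tag PT the order was Foxf2, Tbx3, Tbx2, Gata6 and Foxf1. Foxf1 held rank 3 of 4 in PT of Her2, BALB and the AKR-named table and rank 5 of 5 in C3Tag, at 1.52 per kb in BALB to 8.07 per kb in C3Tag.

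In Lung met, Foxf1 moved up to the first rank in Her2 (33.0 per kb, beside 31.4 for Tbx2) and in the AKR-named table (105 per kb, beside 72.4 for Tbx2). It ranked the second after Tbx2 in C3Tag (125 against 140 per kb) and BALB (24.0 against 29.2 per kb). Gata6 and Tbx3 were the lowest in Her2 Lung met (7.08 and 5.35 per kb), and Gata6 was the lowest in BALB, SEAGN and the AKR-named table (3.90, 4.42 and 15.0 per kb). Neighbours in these orders cannot be said to differ, since the means have no error. With the longest transcript in place of merged exons, the order in Her2, SEAGN and AKR-named PT and in both C3Tag tissues was another, because Tbx3 and Gata6 have transcripts much shorter than their merged exons.

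Protein-coding neighbours within 250 kb, a distance set after the values were seen, mostly had ratios near 0. Mthfsd, 3.48 kb from Foxf1, had log2 ratios from -0.48 to 0.07 over 5 tables. Bcas3, 6.49 kb from Tbx2, lay between -0.16 and 0.08, Rbm19, on the far side of Tbx5, between -0.12 and 0.10, and Mib1, the only such neighbour of Gata6, between -0.21 and 0.08. These genes thus did not share the ratios of Foxf1, Tbx2, Tbx5 and Gata6. Forkhead genes of the same clusters differed among themselves. In C3Tag, Foxc2 (28.0 kb from Foxf1) had a log2 ratio of 1.77 and Foxl1 (39.8 kb) 2.17, whereas Foxc2 was at 0.0045 in Her2. Foxc1, 175 kb from Foxf2, lay between -0.77, in C3Tag, and -0.29 over 5 tables. Foxq1, 64.8 kb from Foxf2, lay between 0.67 and 1.62 over 4 tables, and Slc2a12, 113 kb from Tcf21, was at 1.77 in C3Tag and between -0.17 and 0.72 elsewhere. Of the noncoding neighbours Fendrr, Gata6os, Tbx3os1, Tbx3os2 and Tbx2os1, 0 had a row in any table.

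The signals that act with these factors in lung development were listed as 20 genes of the hedgehog, FGF, WNT and BMP pathways, of which 9 to 14 had a row in a given table. Their median log2 ratio lay between -0.21 in SEAGN and 0.51 in the AKR-named table, so the list as a whole was near 0. Single ligands stood out. Fgf10, the branching ligand named above, had log2 ratios of 2.30 in BALB, 3.03 in SEAGN and 3.09 in the AKR-named table, and no row in Her2 and C3Tag. The Lung met mean of Fgf10 was as low as 12.2 in these tables, so at least 1 of its ratios rested on a low PT mean. Bmp4, a ligand made by lung mesenchyme and distal epithelium, had 3.46 in C3Tag, 1.25 in BALB, 1.81 in SEAGN and 2.82 in the AKR-named table. Grem1, a BMP antagonist, had 3.09 in C3Tag, its only row.

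Receptors and targets of hedgehog signals did not share these ratios. Ptch1, the receptor and target gene, lay between -0.27 and 0.33 over 5 tables, Gli1 between -0.14 and 0.85, and Smo, the signal transducer, between -0.62 and 0.38; these 3 genes were singled out after their values were seen. Shh, Hhip and Rspo2 had no row in any table. Fgf9, a ligand of lung mesothelium and epithelium, had -2.37 in C3Tag and -0.79 in the AKR-named table. At least 2-fold higher were 0 of 9 genes of this list in Her2, 2 of 14 in C3Tag, 3 of 12 in BALB, 2 of 11 in SEAGN and 4 of 13 in the AKR-named table, with 0 or 1 gene at least 2-fold lower in each. Over all genes, 2.38%, 7.42%, 2.26%, 2.86% and 7.31% were at least 2-fold higher in the same order.

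Mesenchyme of the trunk and the mammary gland carries other transcription factors, and a list of 12 of these was set beside the lung factors. In Her2, 5 of the 8 with a row were at least 2-fold lower in Lung met and 0 were 2-fold higher, with a median log2 ratio of -1.48. The medians were -0.53 in BALB and -0.70 in SEAGN, with 1 of 7 and 3 of 6 genes 2-fold lower, and 0.34 in C3Tag and 0.44 in the AKR-named table, with 1 of 9 and 2 of 7 genes 2-fold higher. The list's median was thus lower in Lung met in 3 tables and slightly higher in C3Tag and the AKR-named table. The lung factors with a row were higher in all, but they were chosen by this same ratio. The contrast is therefore no test of a difference between the lists.

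Prrx1, a homeobox factor of limb and trunk mesenchyme, had log2 ratios of -1.01 in Her2, 0.80 in C3Tag, -1.43 in BALB, -1.91 in SEAGN and -0.02 in the AKR-named table. Its relative Prrx2 had -2.05, 1.90, 0.66, -0.39 and 1.54 in the same order. Tbx18, a T-box factor of body wall and other mesenchyme, had -2.90 in Her2 and 0.56 in C3Tag, and Twist2, a factor of dermal mesenchyme, had 0.75 in C3Tag alone. The lowest value of the list was that of Tbx15, a T-box factor of trunk skin and skeleton singled out for this value, at -4.00 in Her2. It was between -0.37 and 0.20 in BALB, SEAGN and the AKR-named table. In Her2, T-box genes therefore lay at both ends of the scale, from Tbx15 at -4.00 to Tbx2 at 1.42.

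**Figure D3:**
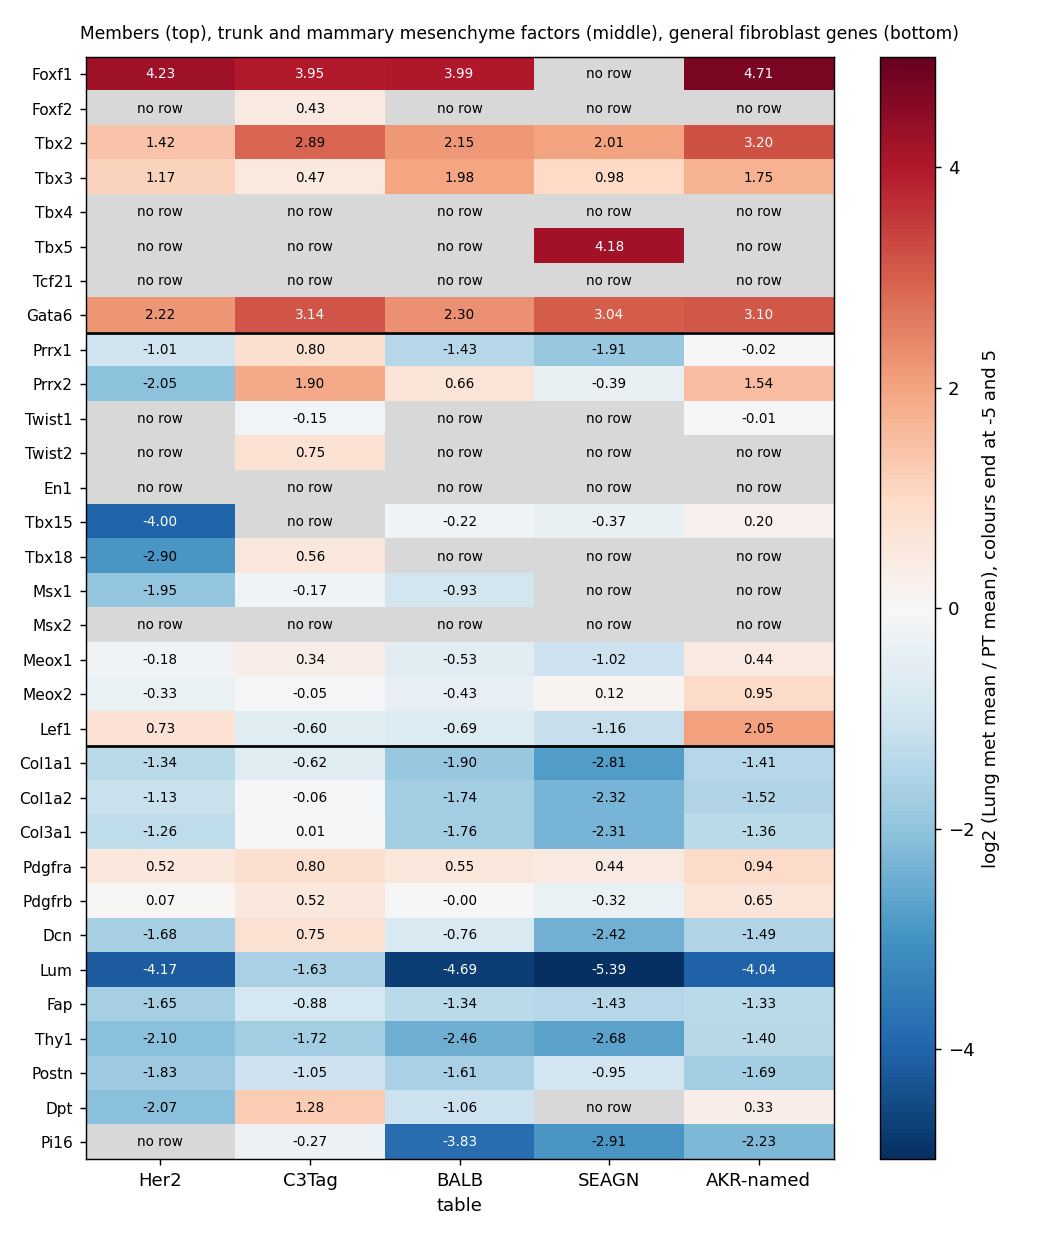
Log2 ratio of the Lung met mean over the PT mean of the 8 lung factors (top block), 12 trunk and mammary mesenchyme factors (middle) and 12 general fibroblast genes (bottom) in 5 tables, red for higher in Lung met, blue for lower and grey where a table had no row. The top block, chosen by this ratio, has no blue cell, while most of the bottom block is blue, down to -5.39 for Lum in SEAGN.

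Families of the members gave a further comparison. Of 13 other T-box genes, 7 had a row in at least 1 table, and the list's median lay between 0.0015 in SEAGN and 0.48 in C3Tag. Tbx1 had 1.53 in C3Tag, its only row, and Eomes, a factor of lymphocytes, had 0.48 in C3Tag and 0.62 in the AKR-named table. Of 36 other forkhead genes, 25 had a row, and the medians lay between -0.04 and 0.19. Those with the largest medians were Foxp2, a factor of lung epithelium and of neurons, at 4.17 in C3Tag and 1.92 in the AKR-named table, Foxq1 at 0.67 to 1.62 in 4 tables, and Foxl1 and Foxc2 in C3Tag as above. At least 2-fold higher were 1 of 21 in Her2, 5 of 24 in C3Tag, 0 of 17 in BALB, 1 of 20 in SEAGN and 2 of 22 in the AKR-named table. The shares over all genes were 2.38%, 7.42%, 2.26%, 2.86% and 7.31% in the same order. At least 2-fold lower were 1 in Her2 (Foxa3, -1.27), 1 in C3Tag (Foxm1, -1.33) and 2 in SEAGN (Foxa3, -1.60, and Foxs1, -1.11), named after their values were seen.

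Among 5 other GATA genes, Gata2 and Gata3 had rows. Gata2, a factor of endothelium, mast cells and blood progenitors, was higher in Lung met in 5 of 5 tables with log2 ratios of 1.31, 1.88, 2.77, 3.06 and 1.53 from Her2 to the AKR-named table. Gata3, the factor of luminal mammary epithelium, lay between -0.60 and 0.31. Of 9 relatives of Tcf21, 5 had a row, and the medians lay between -0.77 and 0.17. Tcf15 was at -0.80 in Her2, Scx, a tendon factor, was between -0.98 and 0.45, and Tcf24 was between -1.13 and 0.68.

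Most general fibroblast genes were lower in Lung met. Of 12 general fibroblast markers, 9 of 11 with a row in Her2, 3 of 12 in C3Tag, 9 of 12 in BALB, 8 of 11 in SEAGN and 9 of 12 in the AKR-named table were at least 2-fold lower in Lung met. Lum, a collagen-binding proteoglycan, had log2 ratios from -5.39 to -1.63, Thy1 from -2.68 to -1.40, and Postn, a matrix protein of activated fibroblasts, from -1.83 to -0.95. Pi16, a marker of adventitial fibroblasts, lay between -3.83 and -0.27 over 4 tables. Some genes of the list were above 0, 2 of 11 in Her2, 5 of 12 in C3Tag, 1 of 12 in BALB, 1 of 11 in SEAGN and 3 of 12 in the AKR-named table, and Dpt in C3Tag (1.28) was at least 2-fold higher. Pdgfra, a growth factor receptor of fibroblasts singled out for this, was at 0.44 to 0.94 in 5 tables. The summed mean of this list was 14273 to 46385 in PT and 4654 to 39144 in Lung met over the 5 tables, and it was lower in Lung met in each of them. Foxf1 exceeded the median of this list by 5.87 in Her2, 4.12 in C3Tag, 5.66 in BALB and 6.12 in the AKR-named table.

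Markers of alveolar fibroblasts, the fibroblasts of the lung parenchyma, were mostly higher in Lung met. The list of 11 genes had a median log2 ratio of 0.14 in Her2, 0.83 in C3Tag, 0.32 in BALB, 1.05 in SEAGN and 1.30 in the AKR-named table. Above 0 were 5 of 8 genes in Her2, 7 of 7 in C3Tag, 5 of 8 in BALB, 8 of 8 in SEAGN and 7 of 8 in the AKR-named table. At least 2-fold higher were 2, 3, 2, 4 and 6 in the same order, beside 2.38%, 7.42%, 2.26%, 2.86% and 7.31% of all genes. None of the list were 2-fold lower. Singled out as lower were Scn7a (-0.68) and Col13a1 (-0.53) in Her2, Col13a1 (-0.32) in BALB and Npnt (-0.73) in the AKR-named table. Mfap4, a matrix protein of elastic fibres, was higher in 5 of 5 tables, between 1.05 and 2.02. Inmt, an N-methyltransferase, was at 6.91 in the AKR-named table alone, Ces1d, a carboxylesterase, was at 1.98 to 2.51 in 3 tables, and Wnt2, a ligand of lung mesenchyme, was at 1.21 in the AKR-named table. Smooth muscle and pericyte markers had medians near 0, from -0.38 in BALB to 0.41 in Her2, although single genes did not. Des ran from -1.65 in BALB to 3.11 in the AKR-named table. Singled out after their values were seen, Higd1b was at 0.40 to 2.42 and Rgs5 at -0.77 to -0.01 over 5 tables. The higher-tissue mean of Higd1b was as low as 8.04. Myh11, the smooth muscle myosin, was at 0.82 in Her2, 0.87 in C3Tag and -0.64 in BALB, and Cnn1 at 0.74, 0.78 and -0.72 in the same tables.

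Markers of other lung cell types, some of which express Foxf1 or Gata6, were mostly higher in Lung met too. Most endothelial markers were higher in Lung met in each table, with 10 to 12 of the 11 or 12 genes with a row above 0 and medians of 0.78 in Her2, 1.42 in C3Tag, 0.71 in BALB, 0.67 in SEAGN and 1.76 in the AKR-named table. Cldn5, a tight junction protein of endothelium, had 1.21 to 4.49, Sox17 0.85 to 2.37, Tek 0.66 to 1.79, and Tmem100, a gene of lung endothelium, 1.67 to 4.41 over 4 tables. Ednrb, singled out as lower, had -0.44 in Her2, -0.56 in C3Tag, -1.71 in BALB, -2.15 in SEAGN and 0.05 in the AKR-named table. Aplnr was at -0.31 in SEAGN and above 0 elsewhere. The summed endothelial mean was 1529 to 5114 in PT and 2291 to 11680 in Lung met. Foxf1 exceeded the endothelial median by 3.45 in Her2, 2.53 in C3Tag, 3.27 in BALB and 2.95 in the AKR-named table. Tbx2 exceeded it by 0.64, 1.47, 1.43, 1.34 and 1.45 from Her2 to the AKR-named table, and Gata6 by 1.35 to 2.36. Tbx3 differed from it by 0.39, -0.95, 1.27, 0.31 and -0.004 in that order, and Foxf2 in C3Tag by -0.99.

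Alveolar epithelium was more unequal between the tissues than endothelium. Of 7 alveolar type 1 markers, 5 to 7 were at least 2-fold higher in each table, with medians from 2.82 to 3.86, and of 5 alveolar type 2 markers with a row, 4 or 5 were, with medians from 1.26 in Her2 to 6.29 in C3Tag. Ager, a receptor of type 1 cells, had log2 ratios of 4.04 to 5.48, Clic5 3.73 to 5.53, Lamp3, a lamellar body protein of type 2 cells, 4.62 to 7.84, and Sftpd, a surfactant protein, 1.21 to 6.29. Sftpc, Sftpb and Sftpa1 had no row in any table. The summed type 1 mean was lower in Lung met in Her2 (58048 in PT and 57208 in Lung met) and in BALB (3637 and 3142) and higher in the other tables, and Aqp5, a water channel of type 1 and secretory cells named after its values were seen, was at -0.13 and -0.66 in Her2 and BALB. The summed type 2 mean was 1979 to 8731 in PT and 5732 to 40756 in Lung met. Foxf1 exceeded the type 1 median by 0.85 to 1.14 over 4 tables. Tbx2 differed from the type 1 median by -1.90 to 0.08, Gata6 by -1.09 to 0.33 and Tbx3 by -2.59 to -0.87 over 5 tables. From the type 2 median, Foxf1 differed by 2.96 in Her2, -2.33 in C3Tag, 0.45 in BALB and 0.09 in the AKR-named table. The part of alveolar and endothelial cells in the ratios of Foxf1, the T-box genes and Gata6 was not tested.

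Of the other lists, the airway marker Cyp2f2 was at 1.02 to 3.63 in 5 tables and Foxj1, the factor of ciliated cells, at -0.42 to 0.94, while Scgb1a1, Scgb3a2, Scgb3a1, Ccdc153 and Bpifa1 had no row. Mesothelial markers were measured mainly in C3Tag, where Msln was at 2.81, Wt1 at 0.79 and Bnc1 at 0.42. Bnc1 was at 0.41 in BALB, 0.94 in SEAGN and -0.41 in the AKR-named table. Fabp4 was the adipocyte marker with rows, at -2.73 in SEAGN and between -0.59 and -0.38 in 3 other tables. The luminal mammary list had medians between -0.61 in C3Tag and 0.21 in SEAGN, with the hormone receptors Pgr at -3.03 to -0.60 in 4 tables and Esr1 at -1.20 to 0.03 in 5. It need not follow the tumor cells of C3Tag, which the paper uses to model a basal-like subtype.

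**Figure D4:**
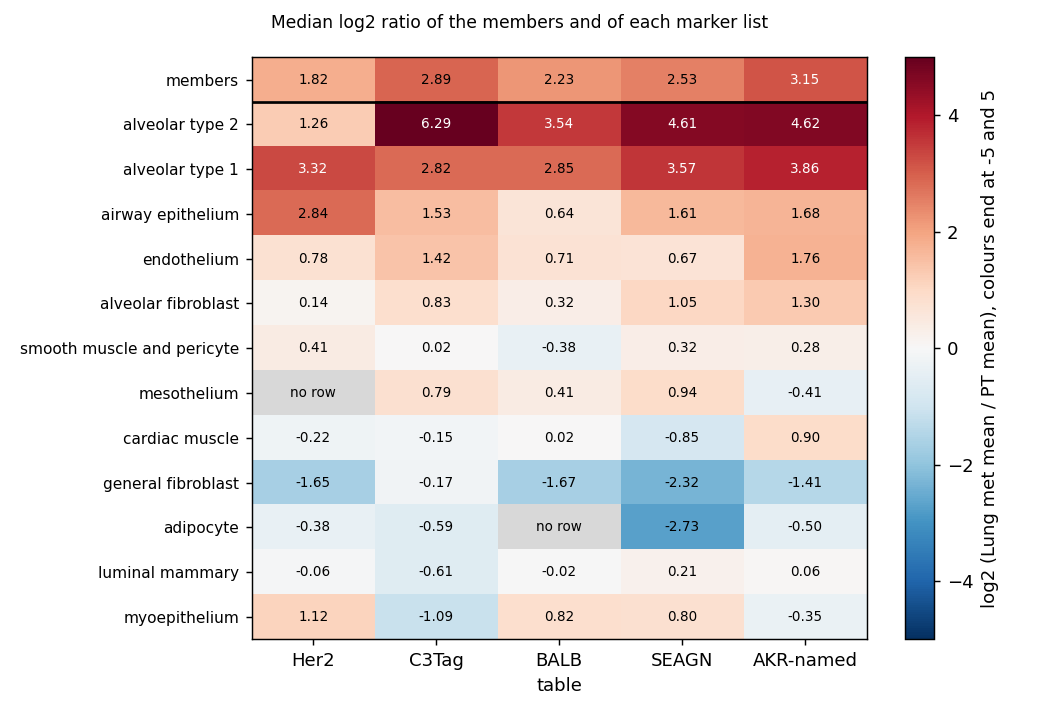
Median log2 ratio of the Lung met mean over the PT mean of the lung mesenchyme factors with a row (top) and of 12 marker lists in each table, grey where no gene of a list had a row. The alveolar and endothelial lists lie above 0 in all 5 tables, as do the factors, which were chosen by this ratio. The general fibroblast list lies below 0 in all 5 (-2.32 to -0.17).

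The genes whose ratios most resembled those of Foxf1 were sought over the 4 tables with a Foxf1 row, among 12031 other genes with a mean of at least 10 in the higher tissue of each. The nearest was Clic5 at a Euclidean distance of 0.64 in log2 ratio, with 3.73, 4.34, 4.08 and 4.75 in Her2, C3Tag, BALB and the AKR-named table. Ager (1.29), Itih4 (1.39), Rtkn2 (2.00) and Napsa (2.18) followed. Clic5, Ager and Rtkn2 are type 1 markers and Napsa a type 2 marker of the lists above. Since nearness is to a ratio of this size, lists with medians near or below 0 could hardly enter.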

How the data were processed

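In the PyMT-F1 models the authors used DESeq2 to compare the tissues, and in the driver models the Gene Specific Analysis of Partek Flow, where reads were also counted. The submitters' processing notes name STAR 2.7.8a and mm39, while the methods name other builds, so coordinates here come from GENCODE M21 (GRCm38). The values used are the deposited group means, a signal that the authors computed as least-squares means after a normalization not given in the sources used here. The authors' own p-values, FDR, ratios and signed fold changes were not used, which leaves no value for Myc.

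For each gene with both means above 0, their log2 ratio (Lung met over PT) was computed with no pseudocount, and a gene was called at 2-fold or more. Rows without both means (0 to 116 per table) were left out. BALB and SEAGN genes carry identifiers of a BALB/cJ annotation and were matched by symbol, although 2678 and 2686 of their rows have none (8 to 13 in the other tables). Having no row therefore means no row with both means under that symbol. For genes of the lists and neighbours, a symbol that occurs more than once in a table also counts as no row. Why some genes have no row is not stated, and a gene without a row may still be expressed. Members and lists were chosen with earlier results of these data known. The text names up to 4 genes of each list, those with the median log2 ratio farthest from 0 and a mean of at least 10, and the 5 genes nearest to Foxf1, the gene with the highest median among those in more than 1 table. Others are given as list members or chosen after their values were seen. Alternatives were another fold, a pseudocount of 1, centring, a mean of at least 10 in the higher tissue, another gene length and leaving out each table. The ratio step was tested on simulated data. Python 3.11.15, numpy 2.4.6, pandas 2.3.3 and matplotlib 3.10.9 were used.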

Additional observations from a re-analysis of the deposited data

How the results depend on the processing

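No paired analysis was possible because the tables hold group means only, although PT and Lung met came from the same mice, and no replicate could be left out for the same reason. The counts of members at least 2-fold higher stayed within 1.5 times in every table with a 1.5-fold threshold, 1 added to the means or centring. The medians of Foxf1, Tbx2, Tbx3 and Gata6 moved by less than 1 SD over tables with 1 added, centring or 1 table left out. Leaving out a table was chosen after seeing the data for all but the AKR-named table. A mean of at least 10 was asked of the higher tissue only, and the Lung met mean of every member with a row passed it. That setting could therefore change none of these counts or medians, and it did not screen low PT means. With 1 added, the Tbx5 ratio in SEAGN went from 4.18 to 3.60 and its difference from Tbx3 from 3.20 to 2.64, since its PT mean was under 2. The median of the luminal mammary list went from -0.02 to 9.1e-05 with a mean of at least 10. By longest transcript, 2 of 4 members kept their rank in level in PT of Her2, SEAGN and the AKR-named table, 1 of 5 in PT and 0 of 5 in Lung met of C3Tag. Ratios against low PT means, as for Foxf1 in Her2 and BALB and Gata6 in SEAGN, depend more on an added constant, and the depth behind them is unknown.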

Other observations

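Lung epithelial transcription factors, 10 in the list and 5 to 7 with a row in a table, had a median log2 ratio of -0.22 in Her2, 0.94 in C3Tag, 0.24 in BALB, -0.23 in SEAGN and 0.21 in the AKR-named table. Hopx, which is also a type 1 marker, was at 2.06 to 4.07. Cebpa, a factor of type 2 cells, was at 2.39 in C3Tag and between -0.14 and 0.69 elsewhere, and Foxa1 was at 1.22 in C3Tag and between -0.79 and -0.29 in 3 other tables. Nkx2-1, Foxa2 and Sox2 had no row in any table.

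The median of the myoepithelial markers was 1.12 in Her2, 0.82 in BALB and 0.80 in SEAGN, against -1.09 in C3Tag and -0.35 in the AKR-named table. Krt14, a basal keratin, was at 1.09, 1.12 and 0.80 in Her2, BALB and SEAGN, and at -1.51 and -0.14 in C3Tag and the AKR-named table. Krt17 did not follow that split, at 1.15, 0.52 and -0.81 in Her2, BALB and SEAGN, and -1.09 and 1.10 in C3Tag and the AKR-named table. Trp63, a basal factor, was at 1.16 in Her2, -0.81 in C3Tag, 1.12 in SEAGN and -0.92 in the AKR-named table. Krt5 was at 1.51 in BALB, 1.69 in SEAGN and -0.55 in the AKR-named table. Csn2, a milk casein of the luminal list, was at 1.47 in Her2, 2.45 in SEAGN and 0.47 in the AKR-named table.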
